A study of Mus musculus with 6 samples.

Results

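Nnt encodes the nicotinamide nucleotide transhydrogenase of mitochondria. It was 1 gene of the 17684 in the deposited gene table, and it was selected on its measured values, because its read counts were known to differ between the 2 groups of kidneys. For that reason the difference between the groups in Nnt itself is given as a description, without a test. Its row was found by its symbol, and the transcript table held 1 Nnt transcript, NM_001308506.1, among 54723.

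The enzyme sits in the inner mitochondrial membrane, where it uses the proton gradient to pass a hydride from NADH to NADP+. The NADPH so made in the matrix feeds the glutathione and thioredoxin systems, which remove hydrogen peroxide, and tubule cells of the kidney are rich in mitochondria. The inbred strain C57BL/6J carries an in-frame deletion of several Nnt exons and lacks the working enzyme, while many other strains carry the full gene. C57BLKS mice descend from C57BL/6J with an admixture of DBA and other strains, so the Nnt allele of a colony cannot be read from the strain name alone.

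RNA of kidneys was sequenced from db/db mice, which lack the signalling form of the leptin receptor and become obese and diabetic. All 6 mice were homozygous for db, carried the strain label C57 BLKS/L (C57BLKS/J in the methods of the study) and were 50 weeks old. The 3 Db mice had received saline, and the 3 Db + Ato10 mice had received atorvastatin, an inhibitor of cholesterol synthesis, at 10 mg per kg and day for 40 weeks. Groups followed each sample's treatment label, since a shared protocol text named atorvastatin for all 6 samples, those labelled saline included. There was 1 library per mouse, no untreated lean mouse among these libraries and no genotype at Nnt. The comparison addressed RNA levels in the diabetic kidney after long treatment with the statin. The paper reports raised mortality in db/db mice given statins, so the treated kidneys came from surviving mice. It raises survivor bias and holds that this may not be the main factor in the renal injury. The part of survival in the RNA levels was not tested.

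The total counts were 13134931, 11381681 and 12426043 in Db replicates 1 to 3 and 14578004, 14667894 and 13133227 in Db + Ato10 replicates 1 to 3. Db replicate 1 stood apart from its label in 1 respect. It held 2 counts over the Y-linked genes Ddx3y, Eif2s3y, Kdm5d and Uty, against 1419 to 2116 in the other 5 libraries, although the methods of the study name male mice only. The Db + Ato10 libraries also differed among themselves. Across genes, which are not independent replicates, Spearman's correlation with the Db libraries was 0.834 to 0.863 for Db + Ato10 replicate 1 and 0.978 to 0.985 for Db + Ato10 replicate 3. Db + Ato10 replicate 3 was thus about as close to the Db libraries as these were to each other (0.980 to 0.983).

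The label kidney was checked against marker genes. The 10 proximal tubule markers summed to 11526, 8624 and 10382 TPM (transcript abundance scaled by gene length and by the library total) in Db replicates 1 to 3, and to 893, 4448 and 8705 TPM in Db + Ato10 replicates 1 to 3. Markers of the thick ascending limb, the distal convoluted tubule, the collecting duct, podocytes and endothelium were present in every library. Those of the adrenal cortex summed to at most 5.32 TPM, of adipocytes to at most 0.74 TPM and of skeletal muscle to at most 0.51 TPM. The 3 hepatocyte markers, of which Alb was the most abundant in Db, summed to 41.5, 25.7 and 32.0 TPM in Db and 5.99, 10.6 and 36.9 TPM in Db + Ato10.

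Nnt was lower in every Db + Ato10 kidney than in every Db kidney. The Db libraries held 4282, 3305 and 3647 Nnt counts, and the Db + Ato10 libraries 1751, 2114 and 1671. In CPM, counts scaled to a common library size with TMM normalisation, the levels were 340, 286 and 295 CPM in Db and 115, 143 and 132 CPM in Db + Ato10. The groups did not overlap, and the lowest Db library was 2.01-fold above the highest Db + Ato10 library. The means were 307 ± 29.0 CPM (SD, n = 3) in Db and 130 ± 13.8 CPM (SD, n = 3) in Db + Ato10, so the treated mean was 42.3% of the untreated mean.

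**Figure D1:**
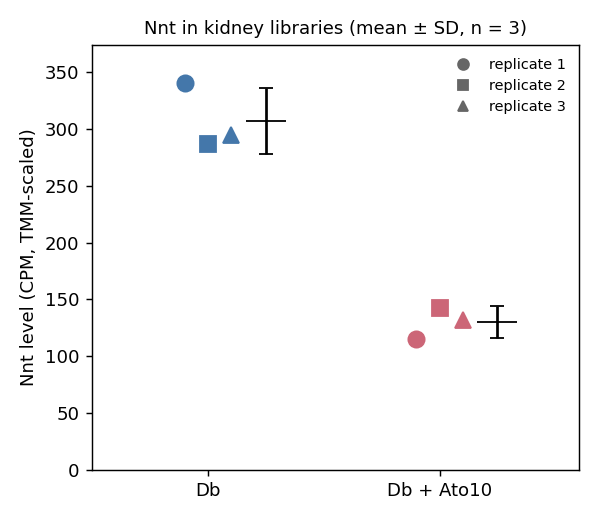
Nnt level in CPM (vertical axis, TMM-scaled counts) in each of 3 Db and 3 Db + Ato10 kidney libraries, with symbols for replicate numbers, and the group mean with its SD as a bar. The Db libraries lie between 286 and 340 CPM and the Db + Ato10 libraries between 115 and 143 CPM.

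The log2 fold change of Nnt was -1.24 (SE 0.16), Db + Ato10 over Db, in the edgeR fit over 13679 tested genes. Without Db replicate 1 it was -1.15, and without Db + Ato10 replicate 3 it was -1.25. The levels scaled by length gave the same order of groups, with 163, 138 and 141 TPM in Db against 49.5, 68.0 and 59.3 TPM in Db + Ato10. In FPKM, fragments scaled by length and depth, the values were 93.6, 83.1 and 84.2 against 34.4, 41.3 and 36.5. By mean TPM, Nnt ranked 1092 in the gene table in Db and 2526 in Db + Ato10.

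Counting error was small beside these differences. As a share of all counts, before TMM scaling, Nnt stood at 290.4 CPM in Db replicate 2, the lowest Db library (Wilson 95% interval 281 to 300.4), and at 144 CPM in Db + Ato10 replicate 2, the highest treated library (138 to 150.4). A gene with 0 counts could still have had up to 3 counts, or 0.198 to 0.260 CPM, in a library. Intervals and floors cover counting error only. In RNA of whole tissue, fewer cells that make Nnt and less Nnt RNA per cell cannot be told apart.

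The transcript table held no other Nnt transcript than NM_001308506.1, which took every Nnt count by construction, so the use of isoforms was not measured. Of the 17684 genes with transcripts in the table, 6436 had 1 transcript. GENCODE release M21 pairs this transcript with ENSMUST00000099149.9, a model of 17 exons, 3464 bases and 2505 coding bases on the minus strand of chromosome 13. In build GRCm38 the gene spans chr13:119335448-119408997, and no other annotated gene overlapped that span. The submitters' processing notes name mm9, and the deposited tables held no coordinates, so these positions describe the model and not the read alignments. The first coding stretch, 151 bases of exon 2 at chr13:119404552-119404702, is shown 5′ to 3′ because it opens the reading frame of the paired model, with the start codon in capitals. The length implied by the deposited counts and FPKM was 3484 to 3497 bases, more than the 3464 of this model, so the model used for counting may have differed from the one shown.
Nnt, coding part of exon 2: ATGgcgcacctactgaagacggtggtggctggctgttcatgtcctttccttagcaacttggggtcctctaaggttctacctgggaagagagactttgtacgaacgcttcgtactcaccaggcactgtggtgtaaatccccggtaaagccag

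The mouse reference assembly was made from C57BL/6J, the strain with the Nnt deletion, so exons missing there are missing from this model too. The stretch shown is likewise the sequence of C57BL/6J, and whether the mice here carry the same bases was not measured. Reads of either allele that fell on shared exons would enter the same count. The level of Nnt RNA was therefore measured, while the allele behind it was not, and a difference in strain background between the mice and an effect of treatment cannot be told apart from these counts.

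Genes that differ between strains were looked at beside Nnt. H2-Ea-ps, the class II gene Ea that is silent in the haplotype of C57BL/6 mice, had 291, 180 and 160 counts in Db and 846, 1461 and 334 counts in Db + Ato10. It thus had reads in all 6 libraries, and more in each treated one (log2 fold change 1.81, SE 0.49, edgeR adjusted p = 0.239, DESeq2 adjusted p = 0.0112). Leukocytes express class II genes, and the 6 leukocyte markers summed to 32.6, 40.6 and 37.3 TPM in Db and 533, 137 and 48.6 TPM in Db + Ato10, whose part in the H2-Ea-ps level was not tested. Glo1, a glyoxalase gene that is duplicated in some strains, had 481, 286 and 321 TPM in Db and 303, 306 and 435 TPM in Db + Ato10, and its groups overlapped. Klrd1, a receptor gene of natural killer cells, had 1 to 6 counts and Hc, complement component 5, had 0 to 10 counts per library, and neither was tested.

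Among all tested genes edgeR called 0 (0% past both limits, a 1.5-fold difference and an adjusted p of 0.05 after Benjamini and Hochberg), with 2314 genes, or 16.9%, at an unadjusted p under 0.05 (781 lower, 5.71%, and 1533 higher, 11.2%). DESeq2 called 884 genes by the same limits, or 6.46%, 177 lower and 707 higher. Without Db + Ato10 replicate 3 edgeR called 1106 genes. At the level of transcripts edgeR called 0 of 30175 (0%), with 2471 at an unadjusted p under 0.05, while DESeq2 called 889. An exact permutation test of 3 libraries against 3 cannot give a p below 0.1. The groups did not overlap in 3180 genes (23.2%), with Db + Ato10 below Db in 1540 (11.3%) and above it in 1640 (12.0%). Nnt was 1 of the 1540, which its choice had fixed.

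In size, 174 tested genes (1.27%) had a log2 fold change as low as that of Nnt or lower. Of the 2924 tested genes with at least 50 TPM on average in Db, 39 did. The gap between the nearest libraries of the groups was 1.00 on the log2 scale for Nnt, against a largest range within a group of 0.31. With Db + Ato10 below, 13 tested genes, Nnt among them, had a gap of that size or larger. The limits were the values of Nnt itself, which was selected because its groups differ, so these numbers are a description. From those 13, chosen after their values were seen, Slc12a1, the salt cotransporter of the thick ascending limb, was the most abundant at 845 TPM on average in Db, and Nnt followed at 147 TPM.

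Nnt was low in Db + Ato10 replicate 3 as well, the treated library that was otherwise closest to Db. A low level in each treated library followed from the choice of Nnt, so its place among the genes below is a description. Relative to the Db mean on the log2 scale, Nnt stood at -1.41, -1.10 and -1.22 in Db + Ato10 replicates 1 to 3. As many as 700 tested genes were that low or lower in replicate 1 (5.12%) and 634 in replicate 2 (4.63%), but 87 in replicate 3 (0.636%). Among the 2924 abundant genes the numbers were 317, 132 and 10. The 10 in replicate 3, chosen after their values were seen, were Klk1b22, Ttr, Nccrp1, the 4 haemoglobin genes Hba-a1, Hba-a2, Hbb-bs and Hbb-bt, the Wnt antagonist Sfrp1, the monocarboxylate transporter Slc16a7, and Nnt. Of these, Nnt, Sfrp1 and Slc16a7 had groups that did not overlap.

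Other enzymes that supply NADPH inside mitochondria went in both directions, with log2 fold changes from -0.84 to 1.19. Of 8 listed genes, all tested, 0 were called by edgeR or DESeq2, against 0% and 6.46% of all tested genes. At an unadjusted p under 0.05, 3 (37.5%) were lower and 0 higher, against 5.71% and 11.2% of all tested genes. Those 3, Idh2, Me3 and Nadk2, also lay below the lowest Db library, as 11.3% of all tested genes did. The list had a median log2 fold change of 0.02, against -0.01 over all tested genes, and it was -0.17 without Db + Ato10 replicate 1 or without replicate 3. Idh2, the NADP-dependent isocitrate dehydrogenase of mitochondria, stood at 670, 653 and 602 TPM in Db and 294, 304 and 512 TPM in Db + Ato10 (log2 fold change -0.71, SE 0.26, edgeR adjusted p = 0.267). It was the most abundant of the list, at 642 TPM on average in Db against 147 TPM for Nnt, and its level in Db + Ato10 replicate 3 was nearer to Db than in the other treated libraries. Me3, a mitochondrial malic enzyme, had a log2 fold change of -0.51 (SE 0.20, edgeR adjusted p = 0.280), which was -0.31 without Db + Ato10 replicate 2.

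The 8 listed sources of NADPH in the cytosol and endoplasmic reticulum included 0 called by edgeR, with 0 lower and 3 higher (37.5%) at an unadjusted p under 0.05, against 5.71% and 11.2% of all tested genes. The list had a median log2 fold change of 0.20, which was 0.037 when Db + Ato10 replicate 2 was left out and 0.092 when Db replicate 2 was. It was 0.32 on leaving out Db replicate 3 or, in its place, Db + Ato10 replicate 1. DESeq2 called 1 of the list, against 6.46% of all tested genes. It was H6pd, which makes NADPH in the endoplasmic reticulum and stood at 91.3, 121 and 84.9 TPM in Db and 135, 150 and 139 TPM in Db + Ato10 (edgeR log2 fold change 0.60, SE 0.19). Pgd, of the pentose phosphate pathway, had 94.0, 98.3 and 106 TPM in Db and 250, 195 and 111 TPM in Db + Ato10, with replicate 3 again next to Db. Idh1, the cytosolic isocitrate dehydrogenase and most abundant of the list, overlapped between the groups (log2 fold change 0.17, SE 0.38).

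Of 10 listed genes of peroxide removal in mitochondria, which include superoxide dismutase Sod2 and the glutathione carrier Slc25a39, 1 was lower and 1 higher at an unadjusted p under 0.05. Together these were 20%, near the 16.9% of all tested genes. The list had a median log2 fold change of -0.10, which lay between -0.25 without Db + Ato10 replicate 3 and -0.025 without replicate 1. Without Db + Ato10 replicate 2 it was -0.029, and without Db replicate 3 it was -0.055. Gsr, glutathione reductase, which spends NADPH, was higher in every Db + Ato10 library, at 86.3, 98.8 and 103 TPM in Db and 167, 161 and 132 TPM in Db + Ato10 (log2 fold change 0.76, SE 0.17, edgeR adjusted p = 0.239, DESeq2 adjusted p = 0.00265). Glrx2, a mitochondrial glutaredoxin, lay lower in every treated library (log2 fold change -0.47, SE 0.15, edgeR adjusted p = 0.239). Prdx5, a peroxiredoxin and the most abundant of the list, overlapped between the groups (log2 fold change -0.07, SE 0.22).

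Nnt was set beside 2 lists of genes for mitochondrial enzymes. All 19 genes of the citric acid cycle and pyruvate dehydrogenase had negative log2 fold changes, with a median of -0.49, and 2 of them, Idh3a (-0.53, SE 0.19) and Pdhb (-0.49, SE 0.19), were lower at an unadjusted p under 0.05, or 10.5%, against 5.71% of all tested genes. All 15 genes of ATP synthase were also on the negative side, with a median of -0.25 and 0 at an unadjusted p under 0.05. Without Db + Ato10 replicate 3 the medians of the 2 lists were -0.83 and -0.38, without replicate 1 that of the citric acid cycle was -0.30, and without replicate 2 that of ATP synthase was -0.13. In ATP synthase, Atp5f1, Atp5a1 and Atp5b had log2 fold changes of -0.48, -0.58 and -0.62, and of -0.73, -0.88 and -0.94 without Db + Ato10 replicate 3. None of the genes of both lists was called by edgeR or DESeq2, which called 0% and 6.46% of all tested genes. The log2 fold change of each was smaller in size than that of Nnt, at -0.69 or closer to 0. Nnt was selected because its groups differ, so this comparison of sizes is a description.

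In Db + Ato10 replicates 1 to 3 the median of the citric acid cycle genes stood at -0.92, -0.63 and -0.02 relative to the Db mean, and that of ATP synthase at -0.32, -0.51 and 0.03. The proximal tubule markers stood at -3.06, -0.89 and 0.01. In replicate 3 these 3 lists were near the Db level, and Nnt, which was selected because its groups differ, was at -1.22.

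**Figure D2:**
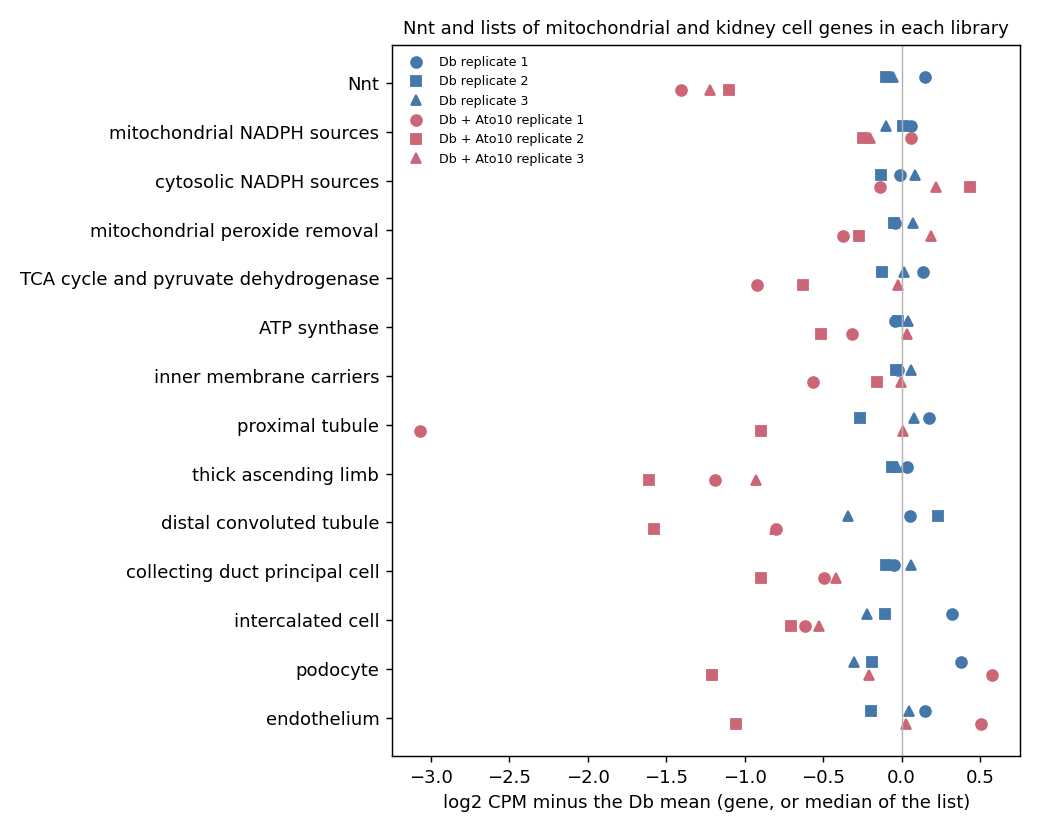
Log2 CPM minus the Db mean (horizontal axis) of Nnt and the median of each of the lists named on the rows in 3 Db and 3 Db + Ato10 libraries, with 1 symbol per library. The Nnt points of Db + Ato10 lie at -1.41, -1.10 and -1.22, while in Db + Ato10 replicate 3 the metabolic and proximal tubule lists lie between -0.20 and 0.22, the thick ascending limb at -0.92, the distal convoluted tubule at -0.81, principal cells at -0.42 and intercalated cells at -0.52.

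The level of Nnt was also taken relative to the mean log2 CPM of each of these lists. This is a description, since Nnt was selected because its groups differ. No such value was taken for the thick ascending limb or distal convoluted tubule markers, which were low in each treated library. Relative to ATP synthase the Db + Ato10 mean minus the Db mean was -0.92 (-0.99, -0.54 and -1.24 by library), and relative to the citric acid cycle it was -0.72 (-0.50, -0.47 and -1.19). Relative to the proximal tubule markers it was 0.12, with 1.54, -0.01 and -1.16 by library, so the direction differed between the treated mice. It was -0.59 without Db + Ato10 replicate 1 and 0.76 without replicate 3. The part of the proximal tubule level in the Nnt difference of replicates 1 and 2 was not tested.

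Of the 10 listed carriers of the inner membrane, 1 was lower and 1 higher at an unadjusted p under 0.05, together 20% and near the 16.9% of all tested genes. The median log2 fold change was -0.22, which was -0.094 without Db + Ato10 replicate 1 and -0.43 without replicate 3. Ucp2, an uncoupling protein family member that is abundant in leukocytes, had 181, 294 and 173 TPM in Db and 1050, 577 and 242 TPM in Db + Ato10 (log2 fold change 1.63, SE 0.55, edgeR adjusted p = 0.243, DESeq2 adjusted p = 0.0430), and its groups overlapped. Without Db + Ato10 replicate 1 its log2 fold change was 0.97. Slc25a12, the aspartate and glutamate carrier of the malate shuttle, had a log2 fold change of -0.54 (SE 0.20, edgeR adjusted p = 0.268), and the abundant ADP/ATP carrier Slc25a5 had -0.44 (SE 0.29), which was -0.73 without Db + Ato10 replicate 3 and -0.27 without replicate 1.

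Markers of other kidney cells differed between the libraries. The thick ascending limb markers stood at -1.19, -1.61 and -0.92 and those of the distal convoluted tubule at -0.80, -1.58 and -0.81 relative to the Db mean in Db + Ato10 replicates 1 to 3, low in replicate 3 as Nnt was, and no marker of either list was at 0 in any library. Principal cells of the collecting duct, at -0.50, -0.89 and -0.42, and intercalated cells, at -0.61, -0.70 and -0.52, were low in each treated library too. At an unadjusted p under 0.05, 4 of 5 thick ascending limb and 3 of 4 distal convoluted tubule markers were lower and 0 higher. So were 4 of 5 principal cell and 3 of 5 intercalated cell markers, against 5.71% of all tested genes lower. DESeq2 called 4, 2, 2 and 1 markers of these lists, all lower, against 6.46% of all tested genes. Podocyte markers went both ways, at 0.58, -1.21 and -0.21, with 3 lower and 2 higher by log2 fold change and 0 at an unadjusted p under 0.05. Those of endothelium stood at 0.51, -1.05 and 0.03, with 3 lower and 2 higher by log2 fold change. Of these 5, Kdr (log2 fold change -1.05, SE 0.36) was lower at an unadjusted p under 0.05, or 20%, against 5.71% of all tested genes. The sums of the 5 thick ascending limb markers, of which Umod was the most abundant, were 4742, 5377 and 4957 TPM in Db and 2663, 1386 and 3570 TPM in Db + Ato10. Those of the 4 distal convoluted tubule markers, led by Slc12a3, were 1324, 1701 and 1083 TPM against 611, 305 and 703 TPM. The 3 injury markers Havcr1, Lcn2 and Krt20, led by Lcn2, summed to 9.26, 119 and 16.7 TPM in Db and 10986, 2388 and 789 TPM in Db + Ato10. The fibroblast markers summed to 55.2, 59.0 and 60.8 TPM against 460.0, 137 and 74.7 TPM, and those of stratified epithelium and urothelium to 3.50, 0.90 and 2.54 TPM against 102, 54.7 and 16.97 TPM. The part of these shifts in the Nnt level was not tested.

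The genes beside Nnt on chromosome 13 went in both directions, with 4 lower and 12 higher by log2 fold change. Of all tested genes 6922 were lower and 6757 higher. The 10 nearest genes of the table on each side, in the RefSeq order of the GRCm38 assembly, gave 20 neighbours, of which 16 were tested. None was called by edgeR, as of all tested genes. At an unadjusted p under 0.05, 0 were lower and 4 (25%) higher, against 5.71% and 11.2% of all tested genes. The median log2 fold change was 0.22, or 0.36 without Db + Ato10 replicate 1 and 0.71 without the filter on counts. By groups that did not overlap, 1 lay below Db (Nim1k) and 3 above (Parp8, Emb and 4833420G17Rik), which together made 25% of the 16, near the 23.2% of all tested genes. DESeq2 called 2 of the 16, Parp8 and Ccl28, against 6.46% of all tested genes.

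On the side of Fgf10, the named neighbours of Nnt were Fgf10, Mrps30, Emb, Parp8, Pelo, Itga1, Itga2, Mocs2 and Fst. Fgf10, a growth factor gene, had only 5 to 31 counts per library, and Mrps30, which encodes a protein of the mitochondrial ribosome, had 468, 447 and 495 counts in Db and 506, 474 and 541 in Db + Ato10 (log2 fold change -0.10, SE 0.15). Mrps30 was at -0.24 without Db + Ato10 replicate 3, -0.043 without replicate 1 and -0.010 without replicate 2. Parp8 had 162, 153 and 186 counts against 414, 371 and 241 (log2 fold change 0.79, SE 0.19, edgeR adjusted p = 0.239). Emb had a log2 fold change of 1.25 (SE 0.44), Fst 0.67 (SE 0.33), Mocs2 -0.36 (SE 0.23), Itga1 0.06 (SE 0.23) and Pelo 0.05 (SE 0.16). The value of Emb was 0.58 without Db + Ato10 replicate 1, and that of Fst was 0.32 without Db + Ato10 replicate 2. Mocs2 was at -0.16 without Db + Ato10 replicate 1 and at -0.59 without replicate 3. Itga2, with 1 to 54 counts, was not tested.

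On the other side came Paip1, 4833420G17Rik, Tmem267, Ccl28, Hmgcs1, Nim1k, Zfp131, Gm46390, Gm36079 and Gm21188. Paip1, which binds the poly(A)-binding protein and lies next to Nnt, had 950, 725 and 796 counts in Db and 817, 884 and 967 in Db + Ato10 (log2 fold change -0.10, SE 0.17), so it overlapped between the groups. Tmem267, farther out, had 76, 63 and 100 counts in Db, 50 and 89 in Db + Ato10 replicates 1 and 2, and 564 in replicate 3, which was 6.81 times the Db mean in CPM. In that library 33 of the tested genes (0.241%) stood as far above the Db mean or farther. 4833420G17Rik had 83, 80 and 95 counts in Db and 170, 157 and 404 in Db + Ato10, and in replicate 3 it was 4.50 times the Db mean in CPM. Ccl28, a chemokine of mucosal epithelia, had 106, 56 and 44 counts against 118, 301 and 299, so it was high in 2 treated libraries.

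For Tmem267 the direction depended on Db + Ato10 replicate 3. Its log2 fold change was 1.45 (SE 0.94) with all libraries and -0.48 without that one, and that of 4833420G17Rik was 1.34 (SE 0.46) and 0.63. Annotated genes on the opposite strand overlap Tmem267, 4833420G17Rik and Fgf10, and no source used here states that counting used the strand, so their counts may include reads of those genes. Hmgcs1, the cytosolic synthase of the cholesterol pathway, had a log2 fold change of 0.26 (SE 0.35), Nim1k -0.49 (SE 0.27), Zfp131 0.10 (SE 0.18) and Gm46390 0.19 (SE 0.52). Nim1k was at -0.29 without Db + Ato10 replicate 2, and Zfp131 at 0.30 without Db replicate 1 and at 0.0017 without Db replicate 3. Gm36079 and Gm21188 were not tested, and Gm21188 had 206 counts in Db + Ato10 replicate 1 against 1 to 17.9 elsewhere.

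**Figure D3:**
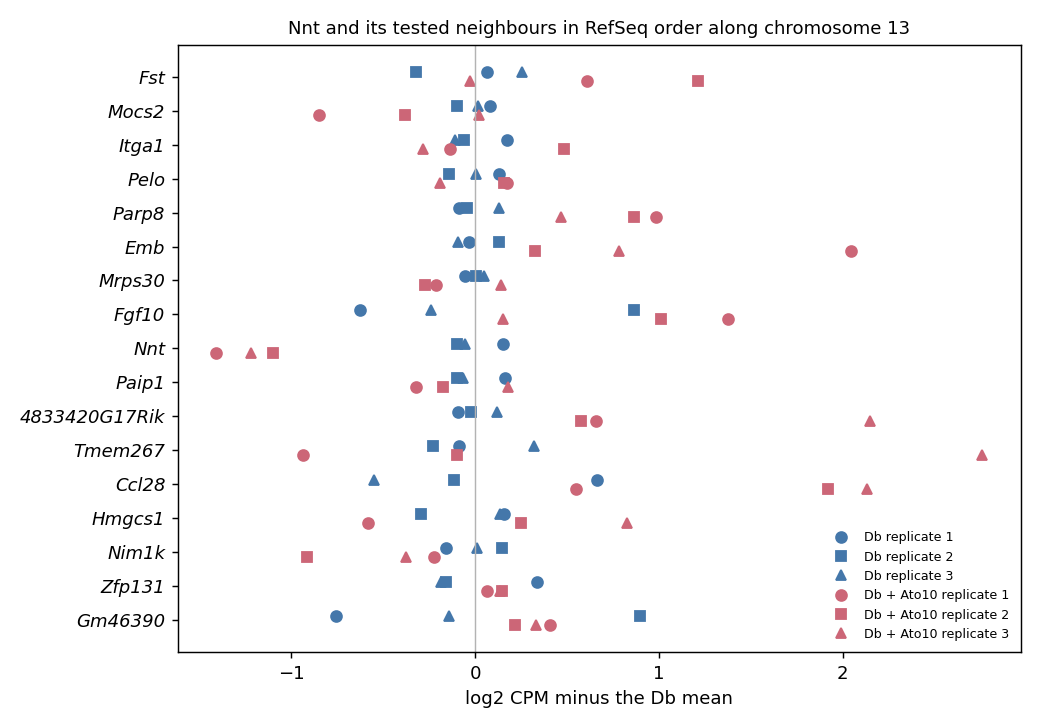
Log2 CPM minus the Db mean (horizontal axis) of Nnt and its 16 tested neighbours on chromosome 13 in RefSeq order (rows), with 1 symbol per library for 3 Db and 3 Db + Ato10 kidneys. Nnt lies at -1.41, -1.10 and -1.22 in Db + Ato10, Paip1 beside it lies between -0.32 and 0.18, and Tmem267 reaches 2.76 in Db + Ato10 replicate 3.

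The genes most like Nnt over the 6 libraries were sought by Pearson's correlation of log2 CPM, as a description, since a gene that separates the groups correlates with Nnt for that reason alone. The 5 highest were Ptgs1 (0.985), Cdc42bpa (0.979), Hist2h2be (0.979), Srl (0.977) and Rab3a (0.977), with n = 6 libraries. The 5 lowest were Tagln2 (-0.987), Phkg2 (-0.985), Nhp2 (-0.983), Psmb2 (-0.979) and Sharpin (-0.979). Each of these genes differed less between the groups than Nnt, which was selected because its groups differ. Ptgs1, a cyclooxygenase, had a log2 fold change of -0.29 (SE 0.11), Srl had -1.10 (SE 0.24), and Tagln2, a transgelin, had 0.78 (SE 0.14).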

How the data were processed

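Kidney RNA of 6 mice was sequenced by the submitters on the BGISEQ-500. Their processing notes name HISAT, Bowtie2 2.2.5 and mm9. Expected counts of genes and of transcripts were deposited by the authors, with FPKM and TPM deposited beside them, and 91.3% of the gene counts were exactly whole (tolerance 0). Expected counts were rounded and fitted with edgeR 4.0.16 (quasi-likelihood test, TMM) in R 4.3.3, for genes that reached 10 counts in 3 or more libraries, with Benjamini-Hochberg adjustment. Log2 CPM used a prior count of 2. DESeq2 1.42.0 and limma 3.58.1 (voom), no filter, the replicate number as a block and leaving out each library were alternatives. The fit was also run on simulated data, whose outcome is not reported here. TPM and FPKM were used for levels only. Plots came from Python 3.11.15 and matplotlib 3.10.9.

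The members and lists were chosen with earlier results of these data known. Named genes were Nnt and its transcript, the 10 nearest genes of the table on each side, the 5 highest and 5 lowest correlations with Nnt among tested genes with a mean of at least 50 counts, and from each list of pathway genes those called by edgeR, otherwise the 2 with the smallest unadjusted p and the most abundant by TPM, with all strain-variable and Y-linked genes. Some genes that this rule names are not reported here. Of 154 list entries 150 were in the gene table, without Ren2, Xist, Cyp11b1 and Myh4. The p-values set the difference between the groups against the variation between these mice only, as each fit estimated it. The RefSeq promoter table matched Nnt in 0 rows.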

Additional observations from a re-analysis of the deposited data

How the results depend on the processing

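The log2 fold change of Nnt kept its direction in all 16 alternatives, from -1.31 to -1.15. Nnt was chosen with groups that differ and do not overlap, so leaving out a library could not turn its sign. The range describes the size of the difference only. Same-numbered libraries did not deviate together (r = -0.15, 0.06 and 0.21), so the numbers were not used as pairs; with a replicate block the Nnt value was -1.24 and edgeR again called 0 genes. The number of genes called was 884 with DESeq2, and leaving out 1 library it ranged from 0 to 1106, the latter without Db + Ato10 replicate 3, with 4038 genes at an unadjusted p under 0.05. DESeq2 called 889 transcripts.

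Leaving out 1 library, the median log2 fold change ranged from -0.17 to 0.075 for mitochondrial NADPH sources, from -0.83 to -0.30 for the citric acid cycle list and from 0.18 to 0.36 for the genes next to Nnt, which was 0.28 with limma-voom and 0.71 without the filter. Nnt relative to the proximal tubule markers ranged from -0.59 to 0.76 on leaving out 1 library, and it was negative only without Db + Ato10 replicate 1. As TPM over the summed TPM of each list, the difference was -0.89 for ATP synthase, -0.75 for the citric acid cycle and 0.31 for the proximal tubule. Both kinds of alternative for Nnt relative to the lists were chosen after seeing the data.

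Of 515 alternative values for 43 named genes, 487 kept direction and side of the threshold, 16 passed it and 12 turned their sign. Leaving out 1 library, the log2 fold change ranged from -0.16 to 0.46 for Idh1, -0.20 to 0.069 for Prdx5, -0.15 to 0.27 for Glo1 (-0.0091 without the filter), -0.20 to 0.21 for Itga1, -0.012 to 0.17 for Pelo, -0.25 to 0.015 for Paip1, -0.48 to 1.95 for Tmem267 and -0.12 to 0.56 for Hmgcs1. The cause was not tested. Without Db + Ato10 replicate 3, Idh2, Pgd, Gsr, Ucp2, H2-Ea-ps, Parp8 and Tagln2 passed the threshold in edgeR. Depth did not limit Nnt, but Fgf10, Klrd1 and Hc were near the floor.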

Other observations

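The other genes whose groups lay as far apart as those of Nnt, on the side with Db + Ato10 below, were mostly scarce. Of the 13, Tmem207 stood at 43.9 TPM and Sycn at 40.9 TPM on average in Db, and Dusp15, Trim61, Bmp5, Stpg1, Vpreb1, Pik3c2g, Adamtsl3, Dnah11 and Best3 at 0.65 to 8.42 TPM. Dusp15, a phosphatase gene, had the widest gap, 1.59 on the log2 scale. Its largest range within a group was 1.39, against 0.31 for Nnt. These genes were picked by their values and are given as a description.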
